A study of Mus musculus with 16 samples.

Results

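The 10 genes described here are Trp53, several p53 targets and the Gadd45 arrest genes. In full they are Trp53, Mdm2, Cdkn1a, Ccng1, Btg2, Plk3, Sesn1, Gadd45a, Gadd45b and Gadd45g. They were taken by gene symbol from the deposited expression tables and are 10 of the 45724 genes listed there. All 10 were found once, had reads in every library and passed the filter on low values in every comparison. Of these, 4 genes, namely Cdkn1a, Ccng1, Btg2 and Gadd45g, were lower in cultures given the peptide NP24 than in the vehicle control. Among all genes tested 1.47% were. Ccng1 passed in only 2 of the 8 fits that left out 1 library. Cdkn1a, Btg2 and Gadd45g were also lower with the peptide Tβ10, against 0.533% of all genes. In the 8 such fits with Tβ10, Cdkn1a passed in 2, Gadd45g in 3 and Btg2 in 7. None of them passed without control library 1. None of the 10 passed the test with the peptide Tβ4. The genes were chosen with earlier results of these data known, so their shares beside all genes are no independent support.

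The cells were primary neurons from the brain of C57BL/6 mice, taken on postnatal day 0 and cultured, a strain in common laboratory use with no engineered allele named in the labels. They received NP24, Tβ10 or Tβ4, which the study attributes to the subcommissural organ, a gland of the brain's ventricular roof. The control cultures received the vehicle alone, Dulbecco's phosphate-buffered saline (DPBS). Each of the 4 groups had 4 libraries of total RNA. Tβ10 and Tβ4 belong to the β-thymosins, which sequester monomeric actin. Doses and exposure times are not given in the sources used here, nor is the number of animals behind a culture. The labels do not say whether the libraries of a group came from separate cultures, so each p measures the spread between these libraries, which may be technical.

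The protein p53 is a transcription factor that is kept scarce by the ubiquitin ligase Mdm2 and accumulates after DNA damage and other stress. It then raises a set of genes that stop the cell cycle, repair DNA or start cell death, and Mdm2 is itself among them, which closes a feedback loop. The Gadd45 proteins are small stress proteins that bind kinases, cyclin complexes and DNA repair factors; only some of their induction depends on p53, and in neurons Gadd45b and Btg2 are also known as genes that respond to activity. Cultured neurons no longer divide, so these genes are studied in them mainly for stress, survival and differentiation. The cultures described here also held markers of dividing cells, so the genes cannot be assigned to neurons alone.

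Promoter windows from RefSeq on build GRCm38.p6 were found for all 10 genes, 12 windows in all. Each runs from 250 bases before to 50 bases after a transcript start and is 300 bases long. The windows of the genes that fell, and that of Mdm2, which did not pass a test, are shown so that their motif matches can be set beside the values. Capitals mark exact matches to a 10-base unit of the p53 element, only part of a full element, in Cdkn1a, Ccng1 and Mdm2. The 10 bases right after GAACATGTCT in Cdkn1a come close to the unit without matching it exactly. So do the 10 bases right before GGGCAAGCCT in Ccng1. The capitals therefore do not show that these units stand alone. They also mark a cAMP response element in Btg2 and the reverse strand of an ATF4/CHOP composite site in Gadd45g. A second capital stretch near the end of the Mdm2 window is the reverse strand of the short cAMP response core TGACG.
Cdkn1a, more upstream start, chr17:29090729-29091028, plus strand: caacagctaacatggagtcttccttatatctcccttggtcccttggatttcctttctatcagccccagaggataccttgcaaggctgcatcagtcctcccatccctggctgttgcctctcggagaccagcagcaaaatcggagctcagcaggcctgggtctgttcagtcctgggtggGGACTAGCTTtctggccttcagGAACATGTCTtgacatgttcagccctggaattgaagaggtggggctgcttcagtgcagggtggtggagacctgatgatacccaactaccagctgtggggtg
Ccng1, chr11:40755237-40755536, minus strand: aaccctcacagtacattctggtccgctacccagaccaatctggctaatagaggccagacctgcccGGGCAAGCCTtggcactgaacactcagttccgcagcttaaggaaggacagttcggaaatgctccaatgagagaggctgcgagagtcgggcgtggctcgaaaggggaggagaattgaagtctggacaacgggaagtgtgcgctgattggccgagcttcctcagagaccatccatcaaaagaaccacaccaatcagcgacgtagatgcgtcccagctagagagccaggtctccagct
Btg2, chr1:134079106-134079405, minus strand: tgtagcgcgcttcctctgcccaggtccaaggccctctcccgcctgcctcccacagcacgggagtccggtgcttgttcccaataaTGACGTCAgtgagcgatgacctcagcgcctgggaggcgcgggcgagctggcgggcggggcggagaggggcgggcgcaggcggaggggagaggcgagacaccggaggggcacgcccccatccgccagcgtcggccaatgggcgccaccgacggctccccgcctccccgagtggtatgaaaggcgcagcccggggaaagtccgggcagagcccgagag
Gadd45g, chr13:51846425-51846724, plus strand: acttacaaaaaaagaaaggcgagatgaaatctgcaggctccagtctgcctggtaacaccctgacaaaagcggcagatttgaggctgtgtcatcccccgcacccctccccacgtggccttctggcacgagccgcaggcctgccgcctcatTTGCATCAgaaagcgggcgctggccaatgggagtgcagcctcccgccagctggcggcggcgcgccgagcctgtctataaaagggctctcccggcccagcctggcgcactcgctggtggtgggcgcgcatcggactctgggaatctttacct
Mdm2, chr10:117710709-117711008, minus strand: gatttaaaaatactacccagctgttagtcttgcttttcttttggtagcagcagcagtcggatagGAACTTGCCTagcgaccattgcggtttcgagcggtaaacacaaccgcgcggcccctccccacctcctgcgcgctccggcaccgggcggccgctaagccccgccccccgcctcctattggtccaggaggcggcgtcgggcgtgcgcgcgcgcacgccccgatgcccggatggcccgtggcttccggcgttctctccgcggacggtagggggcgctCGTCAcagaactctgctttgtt

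No full p53 element was searched. A single 10-base unit of it was searched by its consensus, which reads the same on both strands. Only exact matches were counted, so an adjoining inexact unit was not recorded. It occurred in the windows of 6 of the 10 genes, namely Cdkn1a, Ccng1, Gadd45a, Mdm2, Sesn1 and Trp53, and in 8.36% of 32851 promoter windows in the table. In the upstream Cdkn1a window the unit matched at -73 and again at -51, counted from the start site. The window of the other Cdkn1a start held no match. Matches in Ccng1 at -185 and in Mdm2 at -186 lay farther from the start.

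None of the motifs searched was in the windows of all 4 genes that fell. The full cAMP response element TGACGTCA, searched on both strands, was found in 1.79% of all windows and in Btg2 alone among the 10 genes, at -166. The ATF4/CHOP composite site TGATGCAA was found in 0.895% of all windows and only in Gadd45g among the members, at -101. The core TGACG, which overlaps the full element on both strands, was in Btg2, Mdm2, Plk3 and Sesn1 and in 20.8% of all windows. A TATA box, TATAAA on either strand, was in Gadd45b, Gadd45g and Trp53 and in 13.6% of windows. No member window held the CArG box of the serum response factor, found by its name consensus in 1.63% of windows. A match only records letters in these windows.

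Expression is given as normalized counts, which are read counts divided by 1 size factor per library. Levels of different genes were compared only per kilobase of annotated exon. On that scale Ccng1 was highest in controls, at 368 ± 59.3 normalized counts per kb (mean ± SD, n = 4). Btg2 at 254 ± 33.5, Sesn1 at 234 ± 15.04, Gadd45g at 219 ± 13.3 and Mdm2 at 211 ± 13.9 followed. Btg2 and Sesn1 lay within the spread of Btg2, and Gadd45g and Mdm2 within each other's, while the step from Sesn1 to Gadd45g was slightly larger than either SD. Cdkn1a stood at 144 ± 52.3 and Trp53 at 108 ± 9.94, a gap within the wide spread of Cdkn1a. Gadd45a at 62.6 ± 30.2, Plk3 at 55.9 ± 6.69 and Gadd45b at 30.8 ± 8.18 were the least abundant. Counting error therefore weighs most on Gadd45b, with 5 to 76 reads per library, and on Gadd45a, with 23 to 158 reads.

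Reads assigned to genes ranged from 11642242 to 38254320 per library. All 10 neuron markers, among them Tubb3, Map2 and Rbfox3, were present in every group, with summed levels of 75635 to 85062 in controls, 89274 to 94721 with NP24, 83090 to 101579 with Tβ10 and 65746 to 89580 with Tβ4. Markers of astrocytes, the oligodendrocyte lineage, microglia, fibroblasts and dividing cells were present too. The share of reads from the mitochondrial ribosomal RNAs was 9.32% to 14.2% in controls, 5.98% to 8.12% with NP24, 4.76% to 9.53% with Tβ10 and 8.25% to 24.3% with Tβ4. No batch is named in the labels.

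**Figure D1:**
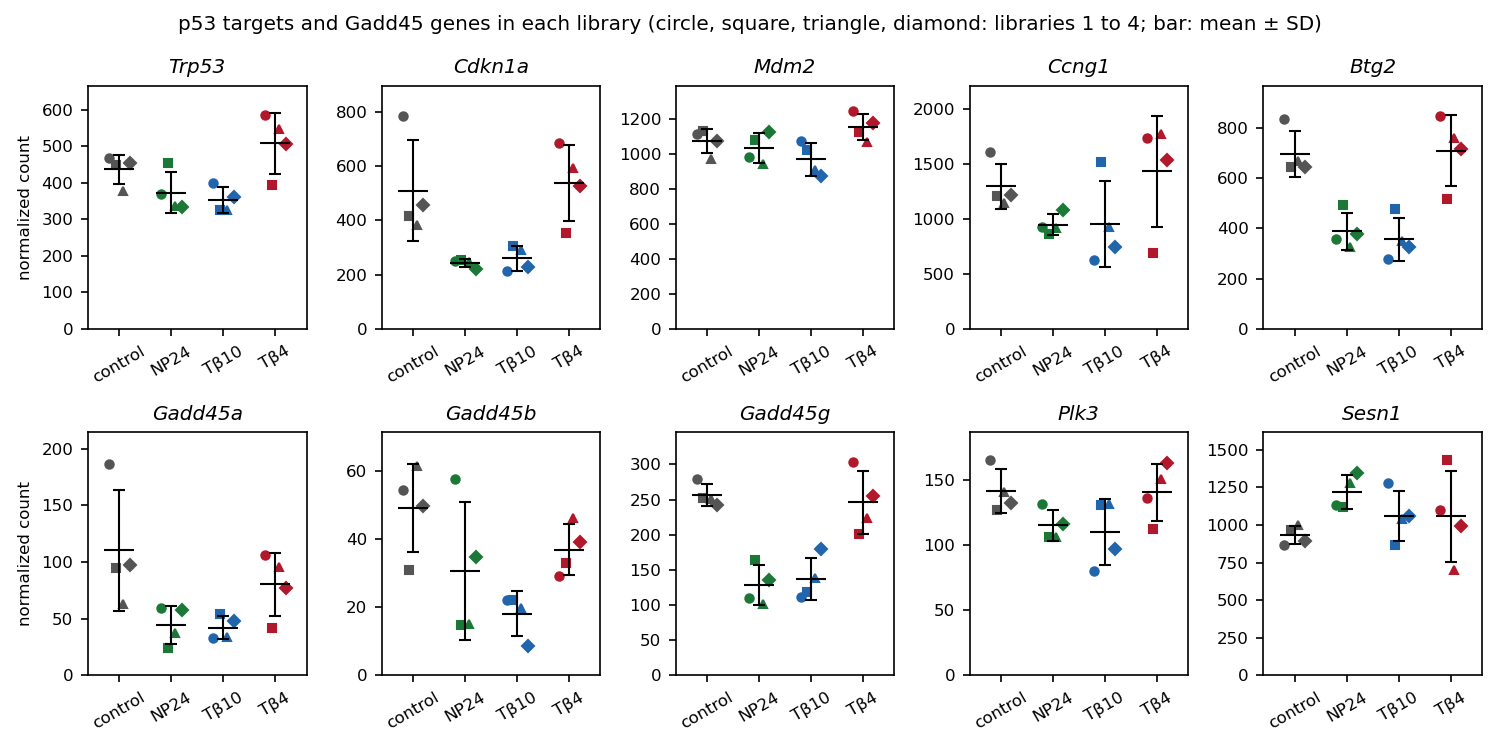
Normalized counts (vertical axes, starting at 0) of the 10 genes in each of the 16 libraries, by group (horizontal axes). Symbols mark libraries 1 to 4 of a group and bars the mean ± SD; Cdkn1a, Btg2 and Gadd45g sit lower in all NP24 and Tβ10 libraries than in any control library.

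Whether each peptide changed expression was asked with limma on log2(normalized count + 1), in which a gene passed at a Benjamini-Hochberg adjusted p under 0.05 over all genes tested. Differences and their standard errors are on that log2 scale. With NP24, 4 of the 10 genes passed as lower, where 1.47% of all 21774 genes tested did, and none passed as higher, where 1.16% of all genes did. The median difference of the 10 genes was -0.64, and that of all genes tested was 0. Every NP24 library lay below every control library for 5 of the 10 genes, against 4.77% of all genes, and above for 1, Sesn1, against 5.07%. With Tβ10, 3 of the 10 passed as lower, against 0.533% of 21960 genes, and none as higher, where 22 genes did. The median of the 10 was -0.72, and the groups did not overlap for 5 genes, all lower, against 3.95% of all genes. NP24 and Tβ10 were compared with the same 4 control libraries, so these counts are not independent of each other. Nor was the choice of the 10 genes independent of these data. Without control library 1, 2 members passed with NP24, among 106 genes in all, and 0 with Tβ10, among 28 genes. With Tβ10 only 1 member passed without control library 2 or 4 or Tβ10 library 3, and 5 passed without Tβ10 library 2.

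The balance of directions over all genes depended on the scaling, that of the members less so. With the deposited size factors 253 genes were higher and 319 lower with NP24, and 22 higher and 117 lower with Tβ10. Scaled to library size, these became 507 and 256 with NP24 and 56 and 67 with Tβ10. Under that scaling 3 members passed as lower with NP24 and 1, Sesn1, as higher, while with Tβ10 only Btg2 passed. No member changed sign with either peptide, though Mdm2 with NP24 came to 0.

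Cdkn1a encodes p21, the inhibitor of cyclin-dependent kinases that carries out much of the arrest ordered by p53. It lies at chr17:29090976-29100727 on the plus strand of GRCm38 (ENSMUSG00000023067.14). In control libraries 1 to 4 it stood at 786, 416, 384 and 456 normalized counts. With NP24 it stood at 249, 254, 247 and 221, and with Tβ10 at 214, 306, 292 and 230. The NP24 libraries were close together and, like those with Tβ10, all below the lowest control. The difference was -1.01 ± 0.18 (SE) with NP24, 2.01-fold lower, at an adjusted p of 0.00466 by limma, and -0.92 ± 0.20 with Tβ10, 1.89-fold lower, at 0.0471. With Tβ4 the libraries stood at 685, 353, 592 and 528, of which library 2 was below the lowest control and the others within the range of the controls.

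The Cdkn1a call with Tβ10 rested on which libraries were included, while that with NP24 passed without any single library. Control library 1 was the highest control by far. Without it the difference was -0.78 with NP24 at an adjusted p of 0.039 and -0.69 with Tβ10 at 0.209 (limma). The Tβ10 call was also lost without control library 2 or 4 or without Tβ10 library 1, 3 or 4, at adjusted p of 0.0527 to 0.152. In the authors' deposited table Cdkn1a differed by -1.07 with NP24, adjusted p 0.0015, and by -0.97 with Tβ10, adjusted p 0.00738. Its exons share 273 bases, 7.7% of their length, with the opposite-strand gene model AC167363.2, whose mean was 38.1 normalized counts.

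Btg2, an antiproliferative protein that recruits the deadenylase complex to messenger RNAs and is induced both by p53 and as an immediate early gene, lies at chr1:134075170-134079120 on the minus strand (ENSMUSG00000020423.6). Control libraries 1 to 4 held 834, 643, 669 and 643 normalized counts. With NP24 the values were 357, 495, 326 and 376, and with Tβ10 they were 278, 478, 349 and 326. The highest peptide library stayed below the lowest control in both groups. Btg2 fell by 0.85 ± 0.14 with NP24, 1.81-fold, at an adjusted p of 0.00272, and by 0.98 ± 0.16 with Tβ10, 1.97-fold, at 0.00638. With Tβ4 the values were 849, 516, 759 and 716, with library 2 below the others. The call was kept with NP24 without any single library, and with Tβ10 it was lost only without control library 1, at an adjusted p of 0.0641.

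Ccng1 encodes cyclin G1, a p53 target that recruits protein phosphatase to Mdm2, and lies at chr11:40748552-40755311 on the minus strand (ENSMUSG00000020326.7). Controls held 1603, 1209, 1148 and 1216 normalized counts, and NP24 libraries 926, 866, 912 and 1083. These groups did not overlap, and the difference of -0.44 ± 0.12, 1.36-fold lower, passed narrowly at an adjusted p of 0.0461 (limma). Without control library 1 it was -0.34 at an adjusted p of 0.191, and it was also lost without control library 2 or 4 and without NP24 library 1, 2 or 3, at 0.0693 to 0.133. In the authors' deposited table the adjusted p for NP24 was 0.507.

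With Tβ10 the 4 Ccng1 values were 629, 1515, 929 and 740, so that library 2 stood among the controls and the others below them. The difference of -0.51 ± 0.20 did not pass, at an adjusted p of 0.322. Without Tβ10 library 2 it was -0.76 at an adjusted p of 0.00708. The Tβ4 group was split in the opposite way, at 1730, 688, 1770 and 1536, with library 2 alone below all controls. Ccng1 had the largest coefficient of variation of the 10 genes in both groups, 41.4% with Tβ10 and 35.3% with Tβ4.

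Plk3, a polo-like kinase of the stress response at chr4:117128655-117133963 on the minus strand (ENSMUSG00000028680.14), did not pass in any comparison. Its controls held 127 to 165 normalized counts, NP24 libraries 107 to 132, Tβ10 libraries 80.4 to 132 and Tβ4 libraries 112 to 163, with overlap throughout. The differences were -0.29 ± 0.22 with NP24 and -0.38 ± 0.23 with Tβ10. Sesn1, a sestrin that restrains mTORC1 signalling and counters oxidative stress, lies at chr10:41809935-41908424 on the plus strand (ENSMUSG00000038332.13) and stood higher rather than lower. Its controls held 869, 963, 999 and 895 and its NP24 libraries 1130, 1120, 1278 and 1344, all above the controls, with a difference of 0.38 ± 0.11 that narrowly missed the threshold at an adjusted p of 0.0521. It passed without NP24 library 2, at 0.036. In the authors' deposited table the adjusted p of Sesn1 for NP24 was 0.34. With Tβ10 Sesn1 held 869 to 1277 and differed by 0.18 ± 0.13, adjusted p 0.646.

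The transcripts of p53 and of its ligase passed no test against control. Trp53 lies at chr11:69580359-69591873 on the plus strand (ENSMUSG00000059552.13) and held 468, 448, 378 and 454 normalized counts in controls. It held 371, 453, 335 and 333 with NP24 and 398, 326, 326 and 362 with Tβ10, so that both groups overlapped the controls. The differences were -0.24 ± 0.14, adjusted p 0.435, and -0.31 ± 0.14, adjusted p 0.428. Tβ4 libraries held 584, 393, 548 and 505. Mdm2, at chr10:117688875-117710758 on the minus strand (ENSMUSG00000020184.15), ranged from 973 to 1129 in controls, 943 to 1125 with NP24, 875 to 1071 with Tβ10 and 1066 to 1243 with Tβ4. Its differences from control were -0.06 ± 0.11, -0.15 ± 0.12 and 0.10 ± 0.11 in that order. Their 95% intervals ran from -0.27 to 0.16, from -0.39 to 0.09 and from -0.14 to 0.35, so a decrease of Mdm2 as large as that estimated for Cdkn1a with NP24 or Tβ10 lay outside all 3.

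The 3 Gadd45 paralogs differed in level and in how tightly their libraries agreed. Gadd45g, at chr13:51846678-51848468 on the plus strand (ENSMUSG00000021453.2), held 279, 253, 251 and 243 normalized counts in controls. It held 110, 164, 101 and 136 with NP24 and 111, 119, 139 and 179 with Tβ10. Controls were within a narrow band, and all 8 libraries of these peptides were below it. Gadd45g fell by 1.02 ± 0.20 with NP24, 2.03-fold, at an adjusted p of 0.0071, and by 0.92 ± 0.19 with Tβ10, 1.90-fold, at 0.0343 (limma). Without control library 1 the adjusted p was 0.0529 with NP24 and 0.185 with Tβ10. The Tβ10 call was also lost without control library 2, 3 or 4 or Tβ10 library 3, at 0.0788 to 0.117. Tβ4 libraries held 304, 201, 224 and 256.

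Gadd45a, the family member with a well-described p53 site in an intron, lies at chr6:67035096-67037457 on the minus strand (ENSMUSG00000036390.8). It held 187, 94.6, 62.9 and 97.4 normalized counts in controls, 59.3, 24.5, 37.1 and 57.8 with NP24 and 32.7, 54.4, 34.2 and 47.8 with Tβ10. All libraries of both peptides were below the lowest control, by a small margin. The differences, -1.26 ± 0.36 and -1.28 ± 0.34, were larger than that of Gadd45g but did not pass, at adjusted p of 0.065 and 0.103 by limma. DESeq2 on the recovered reads called both, at adjusted p of 0.0162 and 0.00865, and the authors' deposited table gives 0.0512 and 0.0328. Gadd45a shares 337 exon bases, 19.1% of its exon length, with the opposite-strand transcript E230016M11Rik, which was more abundant at a mean of 309.0 normalized counts against 69.4. Because the strand setting of the counting is not given in the sources used here, reads of this pair may not be told apart and the Gadd45a values are uncertain.

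Gadd45b, an activity-responsive member tied to DNA demethylation in neurons, lies at chr10:80930073-80932204 on the plus strand (ENSMUSG00000015312.9). Control libraries held 54.3, 30.9, 61.2 and 49.6 normalized counts, and NP24 libraries 57.4, 14.9, 15.1 and 34.7. The Tβ10 libraries held 21.97, 22.2, 19.8 and 8.53, all below the controls. The difference with Tβ10 was -1.43 ± 0.44, 2.69-fold lower, and did not pass at an adjusted p of 0.172 (limma). With NP24, where library 1 lay among the controls, it was -0.84 ± 0.46 at 0.366.

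**Figure D2:**
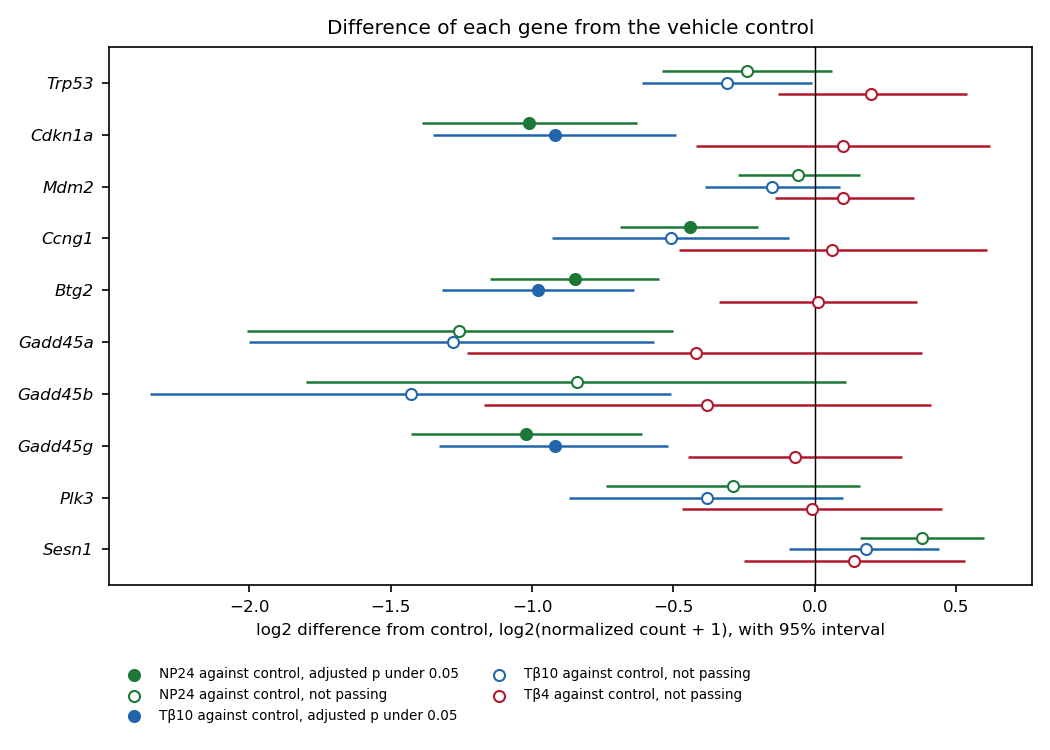
Difference from the vehicle control on the log2(normalized count + 1) scale (horizontal axis) for each gene (vertical axis) and peptide, with the 95% interval from limma; filled points passed at an adjusted p under 0.05. Filled points are 4 for NP24, 3 for Tβ10 and none for Tβ4.

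With Tβ4 no member passed against control, and neither did any other of the 22205 genes tested with limma, 0% of them. At an unadjusted p under 0.05 there were 0 of the 10 members and 1568 genes, 7.06%. DESeq2 called 82 genes and edgeR none, with no member called by either tool. The authors' deposited table has 163 genes at an adjusted p under 0.05 with Tβ4, none of them a member. No member had groups free of overlap, against 4.43% of all genes in either direction. The differences of the 10 genes ran from -0.42 for Gadd45a to 0.20 for Trp53, with a median of 0.04. The 95% interval ran from -0.42 to 0.62 for Cdkn1a, from -0.34 to 0.36 for Btg2 and from -0.45 to 0.31 for Gadd45g. A decrease of these 3 genes as large as their estimates with NP24 lay outside those intervals. Tβ4 library 2 was the lowest of its group for 7 of the 10 genes. Without it 354 genes passed, but again no member.

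Comparisons between peptides came from a single model of the 16 libraries, over 24232 genes. Cdkn1a, Btg2 and Gadd45g were higher with Tβ4 than with Tβ10, 3 of 10 members where 1.05% of all genes were higher. The differences were 1.02 for Cdkn1a (95% interval 0.58 to 1.47, adjusted p 0.0172), 0.99 for Btg2 (0.62 to 1.36, adjusted p 0.00601) and 0.85 for Gadd45g (0.43 to 1.27, adjusted p 0.0357), by limma. Every Tβ4 library exceeded every Tβ10 library for these 3 and for Gadd45b, which did not pass, at 1.05 and an adjusted p of 0.343. Groups free of overlap in that direction made up 4.02% of all genes. Trp53 stood 0.51 higher with Tβ4, at an adjusted p of 0.0978 by limma, while DESeq2 called it, at 0.52 and 0.0338. Scaling to library size shifted the median of all genes by -0.18, and turned 254 genes higher and 72 lower into 165 and 449, while 2 of the 3 members still passed as higher.

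The same 3 symbols were lower with NP24 than with Tβ4, 3 of 10 where 1.65% of all genes were lower. Cdkn1a differed by -1.11 (interval -1.55 to -0.67, adjusted p 0.00857), Btg2 by -0.86 (-1.24 to -0.49, adjusted p 0.0128) and Gadd45g by -0.95 (-1.37 to -0.53, adjusted p 0.0145). All NP24 libraries lay below all Tβ4 libraries for these 3 genes, as they did for 4.65% of all genes. These comparisons share the Tβ4 libraries. Here scaling to library size shifted the median of all genes by 0.14 and turned 107 genes higher and 400 lower into 363 and 269, with 3 members still lower. Between NP24 and Tβ10 no member and no gene of 24232 passed with limma, 0% of them, while 591 genes, 2.44%, and 0 members had an unadjusted p under 0.05. DESeq2 and edgeR called none either. The interval of that difference was -0.53 to 0.36 for Cdkn1a, -0.24 to 0.50 for Btg2 and -0.52 to 0.32 for Gadd45g, which does not show that the peptides act alike.

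Single Tβ4 libraries decided several of these calls. Without Tβ4 library 1, which held the most mitochondrial ribosomal RNA, Btg2 alone passed between Tβ4 and Tβ10, and no member passed between NP24 and Tβ4, where Cdkn1a stood at an adjusted p of 0.0545. Without Tβ4 library 2, 5 members passed in each comparison, Trp53 and Ccng1 joining the 3. More genes passed over the whole table as well: 600 of 23994 were then higher with Tβ4 than Tβ10, and 762 lower with NP24 than Tβ4. Trp53 was then 0.63 higher with Tβ4 than Tβ10, adjusted p 0.0153, and Ccng1 0.90 higher, adjusted p 0.00807. In fits of only the 8 libraries compared, no member passed between Tβ4 and Tβ10, and Cdkn1a alone passed between NP24 and Tβ4. Between Tβ4 and Tβ10, Cdkn1a was also lost without Tβ10 library 1 or 4 or Tβ4 library 4, and Gadd45g without Tβ10 library 1, 2 or 3 or Tβ4 library 4. Between NP24 and Tβ4, Btg2 was lost without NP24 library 3, and Gadd45g without NP24 library 1 or 3.

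Several measures of the cultures also differed between groups. Marker genes of fibroblasts and meninges, 8 in the list, summed to 1813 to 2457 in controls, 1159 to 1325 with NP24, 1245 to 1516 with Tβ10 and 2577 to 5178 with Tβ4. All 6 of them that were tested passed as lower with NP24, against 1.47% of all genes, among them the collagen genes Col3a1 at -3.29, Col1a1 at -2.40 and Col1a2 at -1.92, Bgn at -2.41 and Pdgfrb at -0.95. With Tβ10, 4 of 6 passed as lower, against 0.533% of all genes, or 5 by DESeq2 and 2 after scaling to library size. Lum was at 0 in every control library. With Tβ4 none passed by limma, but all 6 had an unadjusted p under 0.05 and DESeq2 called 3 as higher. Their median difference with Tβ4 was 1.28. The 12 markers of microglia and macrophages summed to 2103 to 2540 in controls, 1809 to 1937 with NP24, 1723 to 2145 with Tβ10 and 2208 to 3075 with Tβ4. Of these, 4 of 8 tested passed as lower with NP24, namely Laptm5 at -2.78, Lyz2 at -2.54, Ctss at -2.05 and Cd68 at -1.28. With Tβ10, 2 of 9 did, Lyz2 at -2.75 and Cd68 at -1.30, or 5 by DESeq2 and 1 after scaling to library size, and Tmem119 was at 0 in every Tβ10 library. Every NP24 library lay below every control for 6 of the 8 tested, against 4.77% of all genes. The exceptions, seen afterwards, were Cx3cr1, at 1303 to 1383 against 1229 to 1379 in controls, and P2ry12, at 268 to 336 against 294 to 478. With Tβ10, Cx3cr1 held 1190 to 1602 and P2ry12 295 to 367, also overlapping the controls. Dividing cell markers summed to 4447 to 5508 in controls, 4664 to 5691 with NP24, 4132 to 6549 with Tβ10 and 5517 to 8562 with Tβ4, and none of the 12 passed against control by limma or edgeR. At an unadjusted p under 0.05 there were 1, 1 and 6 with NP24, Tβ10 and Tβ4, and DESeq2 called Mcm2 lower with NP24 and Mcm5 and Mki67 higher with Tβ4, genes named after their values were seen. Of 10 astrocyte markers, the water channel gene Aqp4 alone passed by limma, higher by 1.70 with NP24 at an adjusted p of 0.000934 and by 1.67 with Tβ10 at 0.01. DESeq2 also called Slc1a3 with NP24, Gfap with Tβ10, and Aqp4 and Slc1a2 with Tβ4, all higher and named after their values were seen. With Tβ4 no astrocyte marker passed by limma, while 5 had an unadjusted p under 0.05, against 7.06% of all genes. Of 10 oligodendrocyte lineage markers, Mbp and Olig2 passed as lower with NP24, at -0.59 and an adjusted p of 0.00183 and at -0.67 and 0.02, and none passed with Tβ10, where 2 had an unadjusted p under 0.05 and edgeR and DESeq2 called 0. Olig2 with NP24 was lost without control library 1 or 4 or NP24 library 3, at 0.0631 to 0.0877, and Aqp4 with Tβ10 without control library 1 or 4 or Tβ10 library 3, at 0.0559 to 0.0584. Of the fibroblast and microglia genes named, Col3a1, Bgn and Laptm5 with NP24 and Col1a1 with Tβ10 still passed without control library 1, and the others missed, at an adjusted p of 0.0504 to 0.0852 with NP24 and 0.0855 to 0.209 with Tβ10; some of these were also lost without other single libraries.

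In such bulk samples fewer cells of a type and less RNA per cell cannot be told apart. The part of these cells in the p53 results was not tested.

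Within groups the mitochondrial ribosomal RNA share moved with some of the members. Control library 1, with the highest share among controls at 14.2%, was the highest control for 7 of the 10 genes. Control library 3, with the lowest at 9.32%, was the lowest for 5. Tβ4 library 1, at 24.3%, was the highest of its group for 6 genes, and Tβ4 library 2, at 8.25%, the lowest for 7. Tβ10 library 2, with the highest share of its group at 9.53%, was the highest for 5 genes. Other libraries departed from this. Tβ10 library 4, with the lowest share of its group at 4.76%, was the lowest for 2 genes, and library 1, at 6.98%, the lowest for 6. NP24 library 3, with the highest share at 8.12%, was the highest for 0 genes, and NP24 library 1, with the lowest at 5.98%, was the lowest for 0 and the highest for 3. The part of this share in the differences between groups was not tested.

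**Figure D3:**
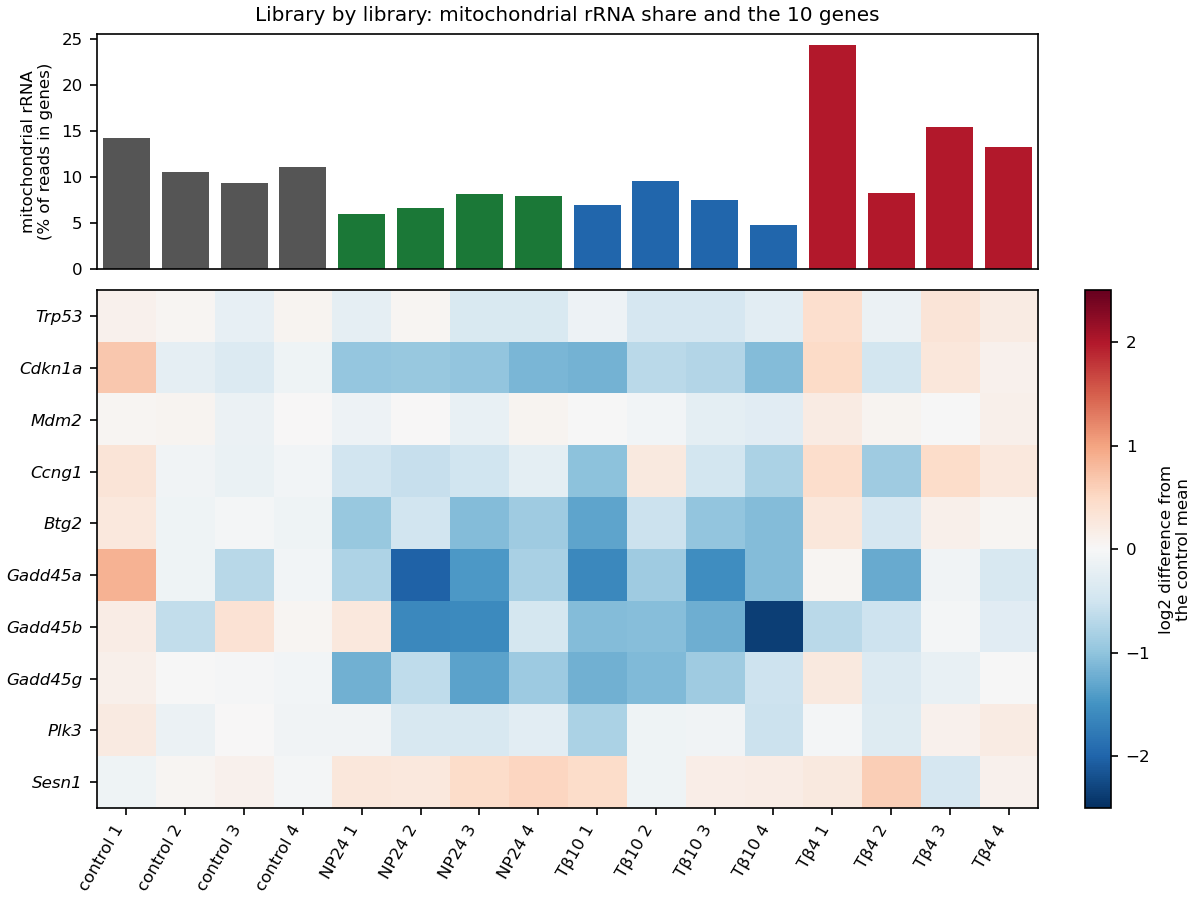
Share of reads in genes from mitochondrial ribosomal RNA (upper panel, percent, bars from 0) and the log2 difference of each gene from its control mean (lower panel, colour) in the 16 libraries. Tβ4 library 2 has the lowest share of its group, 8.25%, and is the lowest of that group for 7 genes, while Tβ4 library 1 has 24.3% and is the highest for 6.

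Of 34 further p53 targets, 9 passed as lower with NP24, against 1.47% of all genes, and none as higher, against 1.16%, with a median difference of -0.40. This list too was chosen with earlier results of these data known, so its counts are a description and no independent support. For the same list edgeR called 10 lower and DESeq2 12. Sesn2, a sestrin raised by p53 and by amino acid stress, held 768, 673, 575 and 728 normalized counts in controls. It held 479, 330, 319 and 363 with NP24 and 280, 446, 329 and 370 with Tβ10, all below the controls, and 855, 404, 814 and 692 with Tβ4. Sesn2 fell by 0.89 ± 0.15 with NP24, adjusted p 0.00221, and by 0.96 ± 0.16 with Tβ10, adjusted p 0.00613 (limma). Its paralog Sesn1 stood higher than control with both of these peptides, without passing.

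Aen, a nuclease of p53-dependent cell death, fell from 960 ± 119 in controls to 611 ± 41.0 with NP24, a difference of -0.65 at an adjusted p of 0.0045, and to 619 ± 48.9 with Tβ10, -0.63 at 0.0269 (SD, n = 4, limma). Psrc1, a microtubule-binding protein, fell from 213 ± 18.1 to 105 ± 5.52 with NP24, -1.01 at 0.00754, and Cpt1c, the brain form of carnitine palmitoyltransferase, from 984 ± 33.9 to 677 ± 56.6, -0.54 at 0.00873. With Tβ10 neither passed, at -0.70 and -0.36. Besides Aen and Sesn2, those lower with Tβ10 were Bbc3, which encodes the cell death activator PUMA, and Eda2r, a receptor of the tumour necrosis factor family. Bbc3 fell from 515 ± 90.7 to 254 ± 43.9, -1.02 at an adjusted p of 0.00638, and Eda2r from 290 ± 60.5 to 155 ± 23.6, -0.88 at 0.0493. With NP24 Eda2r fell by 0.87 at 0.0247, while Bbc3 differed by -0.61 at 0.0783.

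With Tβ10, 4 of the 34 were lower, against 0.533% of all genes, and none higher, with a median of -0.36. There edgeR also called 4 lower, DESeq2 13, and limma after scaling to library size 2. The other genes of the list that were lower with NP24 were Zmat3, Polk, Gdf15 and Pidd1, named after their values were seen. With Tβ4 none of 34 passed by limma, DESeq2 or edgeR, and 4 had an unadjusted p under 0.05, with a median of -0.04. The cell death genes Bax, Fas, Perp and Pmaip1, also named after their values were seen, did not pass with any peptide by limma. With NP24 they differed by -0.34, -0.05, 1.06 and -0.74 in that order. Every NP24 library lay below every control for Pmaip1, and the groups overlapped for the others. Other cell death genes of the list did pass as lower, Aen with both NP24 and Tβ10 and Bbc3 with Tβ10. Without control library 1, Psrc1 and Cpt1c missed the threshold with NP24, each at an adjusted p of 0.0508, and so did Sesn2 and Bbc3 with Tβ10, each at 0.0594. Aen with Tβ10 and Eda2r with both peptides also rested on single libraries: without control library 1 their adjusted p was 0.133 for Aen, and for Eda2r 0.129 with NP24 and 0.249 with Tβ10. With Tβ10 both were also lost without control library 2 or 4 or Tβ10 library 3 or 4, and Eda2r with NP24 without control library 2 or 4 or NP24 library 1 or 3.

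**Figure D4:**
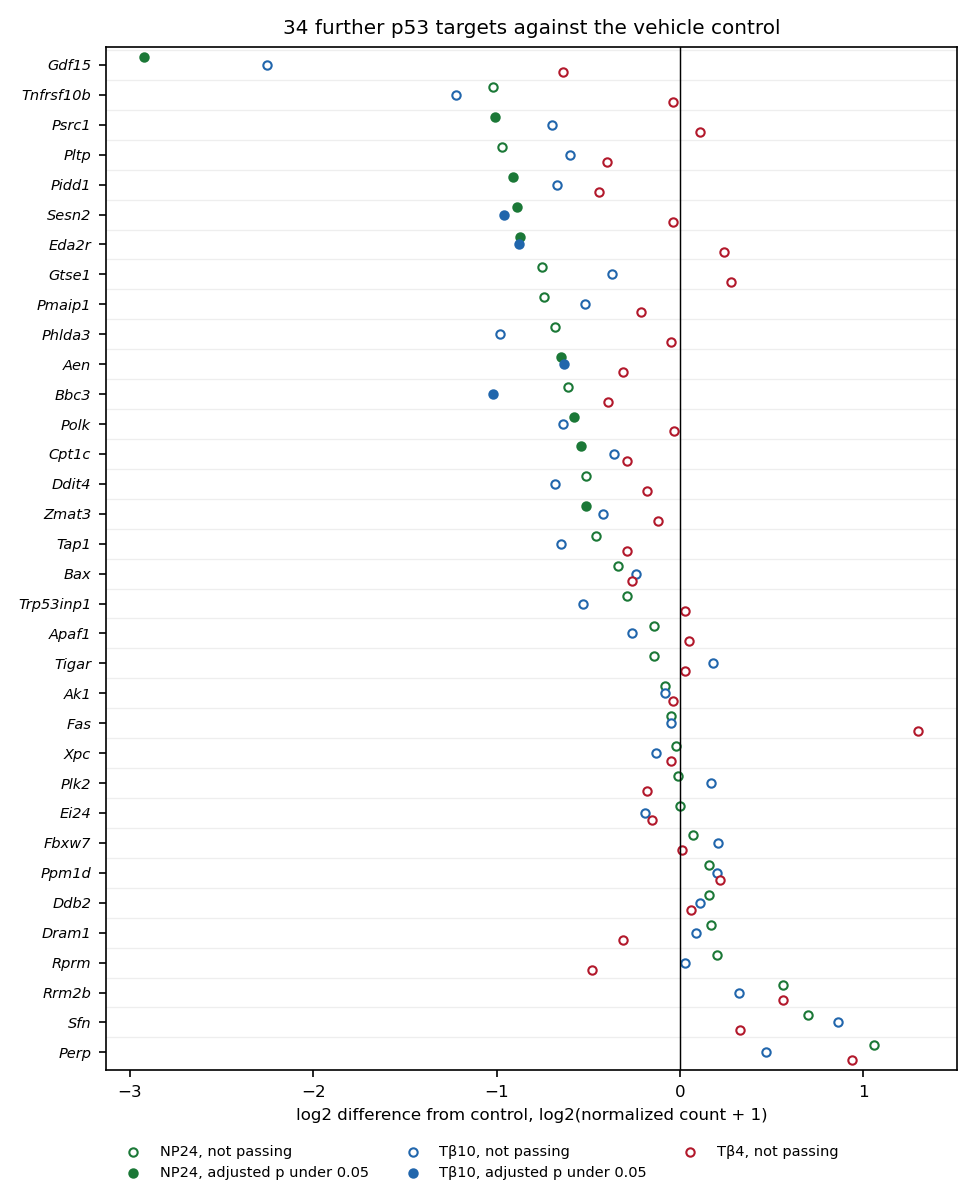
Difference from control on the log2(normalized count + 1) scale (horizontal axis) of 34 further p53 targets (vertical axis, ordered by the NP24 difference) for the 3 peptides; filled points passed at an adjusted p under 0.05. Filled points lie only to the left of 0: 9 for NP24 and 4 for Tβ10. The list was chosen with earlier results of these data known.

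Genes upstream of p53 and around the Gadd45 proteins gave few or no calls. Of 22 regulators of p53, such as the kinases Atm and Chek2 and the inhibitor Mdm4, 0 of 20 tested passed with NP24, 0 of 21 with Tβ10 and 0 of 20 with Tβ4 by limma, with edgeR and DESeq2 also at 0, and 3, 2 and 0 had an unadjusted p under 0.05. Of 12 partners of the Gadd45 proteins, such as Map3k4 and Cdk1, limma and edgeR called 0 with each peptide, and 3, 2 and 2 had an unadjusted p under 0.05. DESeq2 called 1 of them, Mapk8, as higher with NP24. Of 6 tested inhibitors of cyclin-dependent kinases other than Cdkn1a, 0 passed by limma, edgeR or DESeq2 with any peptide, and 0, 0 and 1 had an unadjusted p under 0.05. Among 15 relatives of the members in the same gene families, Sesn2 alone passed by limma with NP24 and with Tβ10. Cdkn1a was the one kinase inhibitor of these lists to pass.

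The genes with profiles most like Cdkn1a were found among 12585 candidates with a mean of at least 50 normalized counts. Likeness was the mean absolute difference of the log2 profiles over the 16 libraries after each was centred on its control mean, so small values mean alike. Nearest to Cdkn1a were Btg2 at 0.165, the lysosomal protease gene Ctsd at 0.168, the hexokinase gene Hk2 at 0.171, Sesn2 at 0.197 and Igfbp3 at 0.207. Nearest to Btg2 were Sesn2 at 0.157, Cdkn1a at 0.165, Gadd45g at 0.177, Slc3a2 at 0.180, which encodes the heavy chain of amino acid transporters, and Hk2 at 0.187. With NP24 Ctsd differed from control by -1.15 at an adjusted p of 0.000318 and Slc3a2 by -0.72 at 0.00112. With Tβ10 they differed by -1.07 at 0.00692 and by -0.97 at 0.0014 (limma). Hk2 differed by -1.03 at 0.0426 and Igfbp3 by -0.85 at 0.0274 with NP24, and neither passed with Tβ10, at -0.82 and 0.157 and at -0.91 and 0.0563. Without control library 1 neither passed with NP24, at 0.192 and 0.117, and both calls were also lost without control library 2 or 4 or NP24 library 3, that of Hk2 also without NP24 library 1 or 4. Without control library 1 the Tβ10 call of Ctsd was lost, at 0.0641. These genes were picked for their likeness, so their changes are no separate result.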

How the data were processed

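Total RNA of 16 libraries was sequenced after preparation with a stranded total RNA kit, per the labels' protocols. The submitters' processing notes name build GRCm38, the aligners HISAT and HISAT2, FastQC, featureCounts and DESeq2; versions, annotation, strand setting and filters are not given in the sources used here. The values deposited for each library are a signal, the authors having divided each gene count by a size factor; 100% of nonzero values were whole multiples of 1 read at a tolerance of 0.01 reads, and the 3 deposited tables agreed to 4.9e-07. The authors' deposited fold changes and their standard errors are log2 values, their Wald statistic is a score, and each has a p-value and an adjusted p-value; these appear only where the authors' table is named.

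Depth was 11642242 to 38254320 reads in genes, and 1 read was worth 0.536 to 1.71 normalized counts. The main test was limma-trend (limma 3.58.1, R 4.3.3) on log2(value + 1) with a filter of 10 normalized counts in 4 or more of the compared libraries, Benjamini-Hochberg adjustment and a threshold of 0.05, in fits of 8 libraries against control and of 16 libraries between peptides. The recovered reads were also fitted with edgeR 4.0.16 and DESeq2 1.42.0; further alternatives were other scalings, pseudocounts, filters and spreads, a replicate block and leaving out each library. No 2 libraries of a group agreed within sampling noise (lowest chi-square per degree of freedom 9.47). Gene positions came from GENCODE M21 and promoter windows from RefSeq, GRCm38.p6. Named were all 10 members, up to 4 called genes per list with the smallest p in a comparison with control, and the 5 genes most like Cdkn1a and Btg2. Some other list genes were named outside this rule, among them Lum, Tmem119 and those said to be named after their values were seen. The members and lists were chosen with earlier results of these data known.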

Additional observations from a re-analysis of the deposited data

Results flagged for a closer look

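In 2 of 40 sets of 4 libraries (10 genes in 4 groups), 1 library lay far from the other 3 by Dixon's test, where chance flags about 1 in 20. Both were control library 1: Ccng1 held 1603.1 normalized counts there against 1148 to 1216 in the other controls, and Btg2 held 834 against 643 to 669. This library also held the most mitochondrial ribosomal RNA among controls, 14.2% of reads; the part of that share was not tested.

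The difference between peptides passed its own test for 3 members in each of 2 comparisons (limma, 16 libraries). Tβ4 libraries stood above Tβ10 libraries by 0.99 for Btg2, 0.85 for Gadd45g and 1.02 for Cdkn1a on the log2 scale, all 4 above all 4. NP24 minus Tβ4 was -0.86 for Btg2, -0.95 for Gadd45g and -1.11 for Cdkn1a, all 4 below all 4. In fits of only the 8 libraries compared, 0 members passed between Tβ4 and Tβ10 and 1 between NP24 and Tβ4. Without Tβ4 library 1 these counts were 1 and 0.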

How the results depend on the processing

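The decreases of Cdkn1a and Btg2 with NP24 kept their direction and passed under every alternative run, including leaving out each library; that of Gadd45g failed only without control library 1. In fits with edgeR and TMM scaling, counts of members passing equalled those of the main test. DESeq2 called 1178 genes with NP24, 432 with Tβ10, 82 with Tβ4, 813 for Tβ4 against Tβ10 and 1172 for NP24 against Tβ4. Without a filter on low values 365 passed with NP24 and 184 for Tβ4 against Tβ10; these fits tested more genes. With the spread of all 16 libraries 120, 62 and 2 genes passed for NP24, Tβ10 and Tβ4. In fits of only the 8 libraries compared, 77 passed for Tβ4 against Tβ10 and 109 for NP24 against Tβ4, with 0 and 1 members. Scaling to library size gave 614 genes for Tβ4 against Tβ10. Sesn1 passed as higher with NP24, the 1 member to do so, under DESeq2 (0.38, adjusted p 0.0129), scaling to library size (0.44, 0.0258) and a pseudocount of 10 (0.38, 0.0452). With Tβ10 only 1 member was lower under library size scaling, the replicate block and the spread of 16 libraries. Under these 3 settings, a pseudocount of 0.1 and no filter, Ccng1 missed the threshold with NP24 (adjusted p 0.0511 to 0.516) and Cdkn1a with Tβ10 (0.0579 to 0.0806).

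Replicate numbers did not pair the samples: deviations of libraries with the same number correlated at -0.30 to 0.11. With the replicate number as a block 91 genes passed with Tβ10, 2 with Tβ4 and 214 for Tβ4 against Tβ10, and in no pair of groups did every library correlate best with its own number.

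Leaving out each library gave 106 to 760 genes with NP24, 28 to 315 with Tβ10, 0 to 354 with Tβ4, 87 to 1052 for Tβ4 against Tβ10 and 104 to 1392 for NP24 against Tβ4. Members lower were 2 to 5 with NP24 and 0 to 5 with Tβ10; higher with NP24, 0 to 1; for Tβ4 against Tβ10, 1 to 5 higher; for NP24 against Tβ4, 0 to 5 lower. Signs changed only in comparisons where the member concerned did not pass. With Tβ4 against control, library size scaling gave -0.02 for Ccng1 and -0.08 for Btg2, and DESeq2 gave 0 for Plk3. Leaving out single libraries there gave -0.03 to 0.33 for Cdkn1a, -0.07 to 0.39 for Ccng1, -0.08 to 0.16 for Btg2, -0.18 to 0.02 for Gadd45g, -0.09 to 0.09 for Plk3 and -0.02 to 0.32 for Sesn1. For Sesn1 between Tβ4 and Tβ10 the range was -0.20 to 0.14. Between NP24 and Tβ10, Ccng1 was -0.02 with edgeR and -0.01 with DESeq2, Gadd45a was -0.02 under library size scaling, and leaving out single libraries gave -0.03 to 0.13 for Trp53, -0.10 to 0.32 for Ccng1, -0.14 to 0.28 for Gadd45a, -0.23 to 0.04 for Gadd45g and -0.05 to 0.19 for Plk3. The causes were not tested. With 5 to 76 reads for Gadd45b and 23 to 158 for Gadd45a per library, depth limits the precision of both.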
